A study of Mus musculus with 12 samples.

Results

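The 10 genes described here control NF-kB signalling through ubiquitin, and were followed in mouse macrophages and osteoclasts with and without lipopolysaccharide (LPS, a component of the outer membrane of Gram-negative bacteria). They are Tnfaip3 (which encodes A20), Tnip1, Tnip3, Cyld, Otulin, Birc3, Traf1, Traf2, Traf3 and Traf6, chosen by name and matched by gene symbol. All 10 were found among the 54532 Ensembl genes of the deposited table, and all 10 were among the 11335 genes tested. RNA of whole cultures was sequenced in 12 libraries, 3 in each of 4 groups.

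All 4 groups came from marrow of wild-type (WT) mice, flushed from femurs and tibiae and expanded with CMG, a culture supplement that supplies macrophage colony-stimulating factor (M-CSF), which all groups therefore received. Untreated macrophages had neither RANKL nor LPS. LPS-treated macrophages had no RANKL and were given LPS at 100 ng/mL for 3 h on day 5. Untreated osteoclasts were cultured with RANKL, the cytokine that turns macrophage precursors into bone-resorbing osteoclasts, and LPS-treated osteoclasts had RANKL and the same LPS dose and time. The labels give RANKL as 100 ng/mL for the osteoclast samples and as a range from 50 to 100 ng/mL in the protocol. The age and sex of the mice, and whether replicates came from separate animals or cultures, are not given in the labels, so p-values measure the spread between these libraries, which may be technical. In whole cultures, fewer cells of a type and less RNA per cell cannot be told apart.

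Ubiquitin chains built on receptor complexes act as scaffolds that recruit the kinases which activate NF-kB. TRAF proteins and cIAP proteins help to build these chains, with TRAF6 acting below Toll-like receptors and RANK, and TRAF2, TRAF3 and the cIAPs acting below TNF-family receptors. A20, CYLD and OTULIN edit or remove chains and thereby limit the signal, and the ABIN proteins encoded by Tnip1 and Tnip3 bind ubiquitin and partner with A20. Several of these regulators are themselves NF-kB target genes, which is the basis of negative feedback. In the osteoclast lineage the RANK receptor signals through TRAF6, and TRAF3 restrains the non-canonical arm.

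The promoter sequences show where NF-kB consensus letters lie near the start sites of the 10 genes. RefSeq windows of 300 bases, from 250 before to 50 after each annotated start, were searched on both strands of build GRCm38.p6. The NF-kB consensus, a 10-base pattern with mixed letters given here by name alone, was in 8.46% of the 32851 windows of all genes. All 10 genes had a window and Tnfaip3 had a pair of them, and 5 of these 11 windows held the consensus. The consensus matched in Tnfaip3 at chr10:19015526-19015535 and chr10:19015413-19015422, in Tnip1 at 3 overlapping positions, in Tnip3, in Cyld at chr8:88696873-88696882 and in Traf3 at chr12:111166360-111166369. It did not match in Traf1, Traf2, Traf6, Birc3 or Otulin, which says only that these letters are not in those windows. The sequences run 5′ to 3′ on the strand of the gene, and capitals mark matches to the consensus. For Tnip1 (minus strand, chr11:54962941-54963190), Tnip3 (plus strand, chr6:65590148-65590397) and Traf1 (minus strand, chr2:34961773-34962022) they are the 250 bases before the RefSeq start, and for the others a match with its flanks. Traf1 is shown as 1 example of a window with no match in a gene that rose strongly in macrophages, and Birc3 is another. The RefSeq start of Tnip3 lies 65085 bases inside the longer GENCODE gene, and those of Tnfaip3 lie 247 and 3694 bases inside, the printed sites being near the first.
Tnfaip3 site farther from the start: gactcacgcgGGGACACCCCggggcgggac
Tnfaip3 site nearer the start: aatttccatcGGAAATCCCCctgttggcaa
Tnip1: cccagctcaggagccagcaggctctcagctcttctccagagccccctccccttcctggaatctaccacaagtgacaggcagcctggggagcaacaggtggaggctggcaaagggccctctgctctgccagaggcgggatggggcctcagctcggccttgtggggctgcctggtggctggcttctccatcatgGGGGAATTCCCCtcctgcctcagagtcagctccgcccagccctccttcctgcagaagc
Tnip3: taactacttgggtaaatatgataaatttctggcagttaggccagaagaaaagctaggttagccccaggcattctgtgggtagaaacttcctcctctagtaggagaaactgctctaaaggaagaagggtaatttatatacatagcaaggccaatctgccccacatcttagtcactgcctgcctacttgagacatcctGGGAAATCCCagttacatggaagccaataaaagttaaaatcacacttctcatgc
Cyld site: ttgaccgagcGGAAAGTCCCttcagccagc
Traf3 site: ggcggcccgcGGGGATTTCCagcgcgcgag
Traf1: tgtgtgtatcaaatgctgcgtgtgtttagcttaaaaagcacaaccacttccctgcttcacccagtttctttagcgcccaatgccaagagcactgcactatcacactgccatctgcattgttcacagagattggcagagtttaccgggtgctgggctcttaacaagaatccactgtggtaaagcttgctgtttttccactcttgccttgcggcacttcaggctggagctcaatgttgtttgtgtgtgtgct

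Levels are given in FPKM as deposited (fragments per kilobase of gene, on the authors' scale for each library), and differences are log2 differences of FPKM + 1, which understate the change of low genes. A gene was called where the adjusted p of limma, a linear model fitted across all 11335 genes, was under 0.05 after Benjamini-Hochberg adjustment, two-sided. Libraries held between 15651770 and 20281456 assigned reads, and between 9728 and 10301 genes reached 1 FPKM. Osteoclast markers such as cathepsin K (Ctsk) summed to between 15.4 and 28.0 FPKM in the macrophage libraries and to between 29120 and 32120 FPKM in the osteoclast libraries. Macrophage markers summed to between 1999 and 2461 FPKM in macrophages and to between 1693 and 1795 FPKM in osteoclasts, where Cd68 and Csf1r carried most of the sum. Cd68 was higher in osteoclasts, with means of 1402 FPKM untreated and 1374 with LPS, against 670 and 783 in macrophages. Csf1r was lower in osteoclasts, at 310 and 293 FPKM against 441 and 420. The other 5 macrophage markers were far lower in untreated osteoclasts than in untreated macrophages, with Adgre1 at 33.1 against 428 FPKM, Mrc1 at 2.57 against 293, Mertk at 1.79 against 19.4, Cx3cr1 at 0.486 against 142 and Fcgr1 at 0.429 against 45.1. T cell and erythroid markers summed to at most 0.135 FPKM in any library, B cell markers to at most 0.134 FPKM and dendritic cell markers to at most 1.33 FPKM. Stromal and osteoblast markers summed to between 24.8 and 34.7 FPKM in the macrophage libraries, with 2 of 5 at 1 FPKM or more, and to at most 0.572 FPKM in osteoclasts, where Cxcl12 was at 0 in every library. Neutrophil markers summed to between 5.41 and 16.0 FPKM in macrophages and to at most 1.88 FPKM in osteoclasts, where Ly6g, Elane and Mpo were at 0. Mitochondrial genes took between 1.27% and 1.62% of reads in macrophages and between 5.16% and 6.18% in osteoclasts. These values move with cell type, and some also moved with LPS within a cell type. In macrophages the osteoclast marker sum was 15.4 to 19.2 FPKM untreated and 23.9 to 28.0 FPKM after LPS, of which Acp5 alone had means of 0.950 and 14.6 FPKM, while Nfatc1 (7.04 and 4.66), Atp6v0d2 (3.98 and 2.55) and Ctsk (1.43 and 0.753) had lower means after LPS. In the same libraries mitochondrial reads were 1.504% to 1.62% and 1.27% to 1.37%. The mean of Cx3cr1 was 142 and 37.8 FPKM, that of Fcgr1 45.1 and 161 FPKM and that of Adgre1 428 and 669.7 FPKM. The neutrophil markers S100a9 (2.96 and 6.29) and Ngp (1.24 and 2.76) also had higher means after LPS in macrophages. In osteoclasts the mean of Adgre1 was 33.1 FPKM untreated and 62.2 FPKM after LPS, and that of Fcgr1 0.429 and 1.496 FPKM. The dendritic cell sum was at most 0.107 FPKM untreated and at least 0.157 after LPS in macrophages. In osteoclasts it was at most 0.560 FPKM untreated and at least 0.889 after LPS. Acp5 and Cx3cr1 each overlap an exon of a gene on the opposite strand and whether reads were counted by strand is not given in the sources used here, so their values are uncertain. The part of these values in the differences between cell types and in the LPS effects was not tested.

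In macrophages 9 of the 10 genes were higher with LPS and Otulin was lower, and 6 of the 9 were still called higher when libraries were rescaled to TPM (each library set to the same sum), where Traf3 and Traf6 changed sign and 15.9% of all genes tested were called higher and 70.0% lower. In osteoclasts 7 of the 10 rose, none fell, and Otulin, Traf3 and Traf6 did not pass the test. Under TPM the osteoclast call of Cyld was lost (0.22, limma adjusted p = 0.0535), where 8.29% of all genes tested were called higher and 10.8% lower. Over all genes tested, 36.8% were called higher and 33.1% lower with LPS in macrophages, and 11.1% higher and 6.59% lower in osteoclasts. The median log2 difference of the 10 genes was 2.50 in macrophages and 0.69 in osteoclasts, beside 0.02 and 0.01 over all genes tested. The responses of the cell types differed for all 10 genes in the test of that difference, the response being smaller in osteoclasts for 9 of them, of which Cyld, Traf3 and Traf6 changed sign under TPM.

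**Figure D1:**
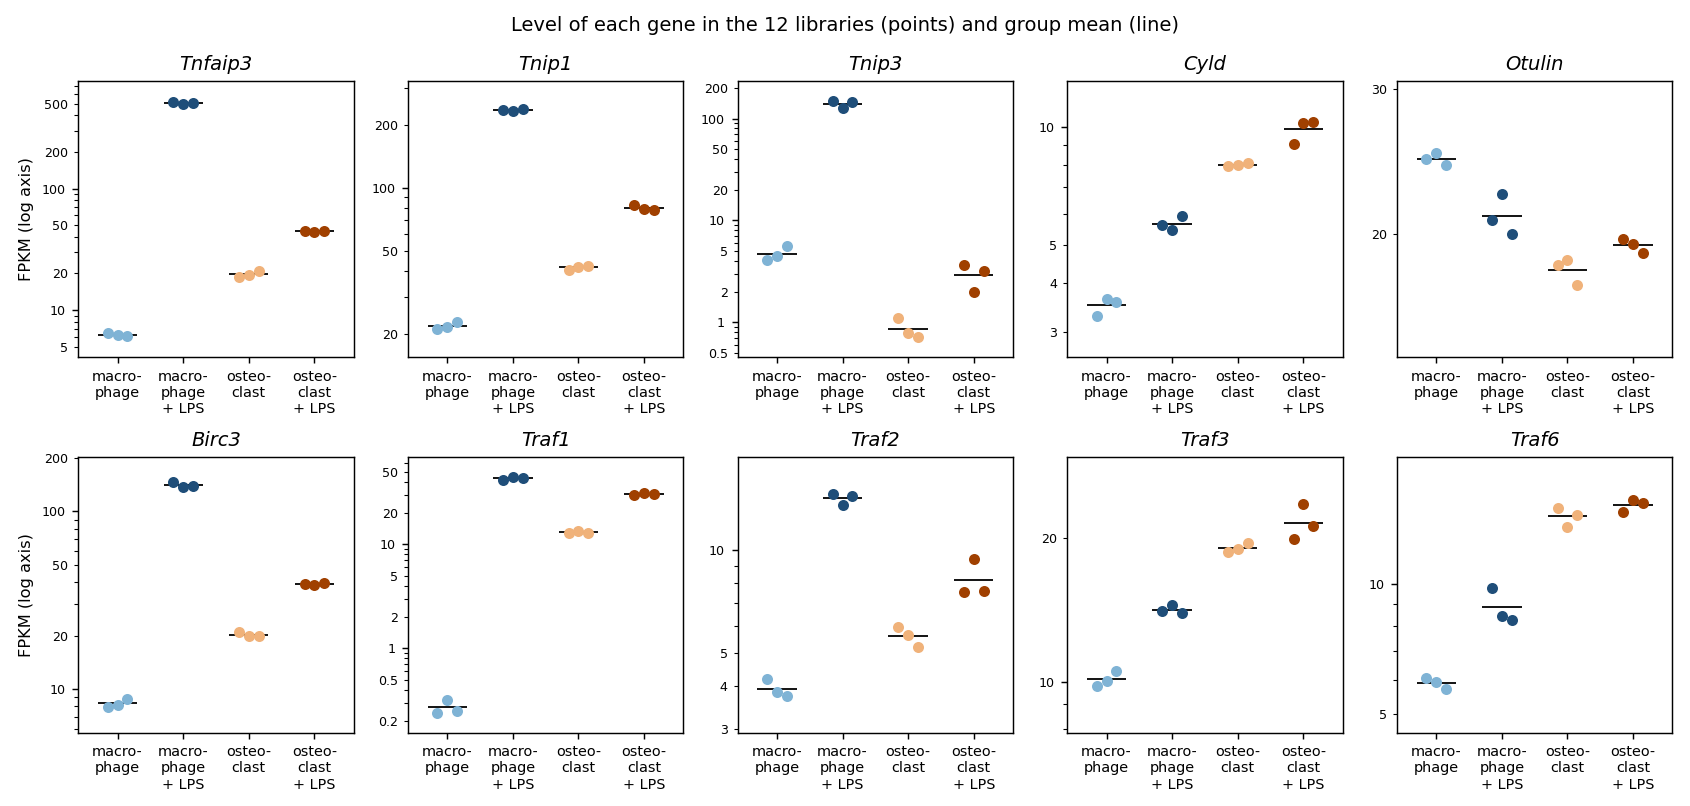
FPKM on a log axis for each of the 10 genes in the 12 libraries, with points for libraries and a line for the mean of each group of 3. Tnfaip3 stands between 493 and 512 FPKM in LPS-treated macrophages and between 43.6 and 44.7 FPKM in LPS-treated osteoclasts, while the Traf6 points of untreated and LPS-treated osteoclasts overlap.

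Tnfaip3 (ENSMUSG00000019850, chromosome 10, 19000910 to 19015657, minus strand, GRCm38) encodes A20, the ubiquitin-editing enzyme that ends NF-kB signalling. Its level was 6.45, 6.19 and 6.16 FPKM in untreated macrophages and 512, 493 and 501 FPKM after LPS. It was 18.9, 19.3 and 20.8 FPKM in untreated osteoclasts and 44.6, 43.6 and 44.7 FPKM after LPS. The LPS-treated macrophage libraries were far above all others, untreated macrophages were the lowest group, and no groups overlapped. In macrophages Tnfaip3 rose 80.1-fold, a log2 difference of 6.11 (SE 0.04, limma adjusted p = 3.54e-16, n = 3 against 3), which ranked 45 of 11335 from the highest. In osteoclasts it rose 2.26-fold, a log2 difference of 1.14 (SE 0.04, adjusted p = 3.28e-09). Without LPS it was 3.13-fold higher in osteoclasts than in macrophages, and with LPS it was 11.3-fold lower, so that the order of the cell types reversed.

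Tnip1 (ENSMUSG00000020400, chromosome 11, 54910785 to 54962917, minus strand) encodes ABIN-1, a ubiquitin-binding partner of A20. Its level was 21.04, 21.7 and 22.8 FPKM in untreated macrophages and 236, 232 and 239 FPKM after LPS, and 40.6, 42.0 and 42.4 FPKM in untreated osteoclasts and 82.4, 79.0 and 78.1 FPKM after LPS. The 4 groups did not overlap and stood in the same order as for Tnfaip3. Tnip1 rose 10.8-fold in macrophages, a log2 difference of 3.38 (SE 0.04), and 1.92-fold in osteoclasts, a difference of 0.92 (SE 0.04). It was the most abundant of the 10 genes per length in both osteoclast groups.

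Tnip3 (ENSMUSG00000044162, chromosome 6, 65525313 to 65634040, plus strand) encodes ABIN-3, another A20-binding protein. Its level was 4.05, 4.50 and 5.60 FPKM in untreated macrophages and 149, 127 and 144 FPKM after LPS. In osteoclasts it was 1.09, 0.786 and 0.717 FPKM untreated and 3.62, 1.98 and 3.18 FPKM with LPS. Every osteoclast library, with or without LPS, was below every macrophage library. Tnip3 rose 29.6-fold in macrophages (log2 difference 4.63, SE 0.15) and 3.38-fold in osteoclasts (1.05, SE 0.15, limma adjusted p = 4.36e-04). The osteoclast difference was 1.63 with a pseudocount of 0.1 and 1.75 on recovered reads with voom, and the untreated osteoclast level rests on between 133 and 220 reads per library.

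Among the deubiquitinases, Cyld rose in both cell types as deposited but passed the test in neither under TPM, and Otulin fell in macrophages and was not called in osteoclasts. Cyld (ENSMUSG00000036712, chromosome 8, 88697028 to 88751945, plus strand), which removes ubiquitin chains from NF-kB signalling proteins, was at 3.29, 3.64 and 3.57 FPKM in untreated macrophages and 5.62, 5.46 and 5.90 FPKM after LPS. In osteoclasts it was at 7.92, 7.97 and 8.08 FPKM untreated and 9.05, 10.2 and 10.3 FPKM after LPS. The groups did not overlap, and every osteoclast library was above every macrophage library. Cyld rose 1.62-fold in macrophages (log2 difference 0.57, SE 0.06) and 1.23-fold in osteoclasts (0.27, SE 0.06, limma adjusted p = 0.00489). Rescaled to TPM, the differences were 0.04 in macrophages (adjusted p = 0.59) and 0.22 in osteoclasts (adjusted p = 0.0535), so both calls were lost.

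Otulin (ENSMUSG00000046034, chromosome 15, 27542635 to 27630693, minus strand) encodes the deubiquitinase specific for linear chains. Its level was 24.7, 25.1 and 24.3 FPKM in untreated macrophages and 20.8, 22.3 and 20.01 FPKM after LPS, which was lower in all 3 libraries. In osteoclasts it was 18.3, 18.6 and 17.3 FPKM untreated and 19.7, 19.4 and 19.0 FPKM after LPS, and the groups did not overlap. Otulin was thus the most abundant gene of the 10 in untreated macrophages and the only one that LPS lowered there, with a log2 difference of -0.22 (SE 0.04, limma adjusted p = 7.86e-04). The difference was -0.87 when rescaled to TPM and -0.66 with quantile normalization. In osteoclasts the difference was 0.10 (95% interval -0.0024 to 0.19, adjusted p = 0.171).

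Birc3 (ENSMUSG00000032000, chromosome 9, 7848699 to 7873186, minus strand) encodes cIAP2, a ubiquitin ligase that works with TRAF2. Its level was 7.90, 8.17 and 8.85 FPKM in untreated macrophages and 146, 137 and 140 FPKM after LPS. In osteoclasts it was 21.04, 19.9 and 19.8 FPKM untreated and 39.1, 38.3 and 39.8 FPKM after LPS. The groups did not overlap and stood in the order of Tnfaip3 and Tnip1. Birc3 rose 17.0-fold in macrophages (log2 difference 3.93, SE 0.05) and 1.93-fold in osteoclasts (0.92, SE 0.05).

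Traf1 (ENSMUSG00000026875, chromosome 2, 34941750 to 34961772, minus strand) encodes an adapter without the RING domain of other TRAF proteins, which binds TRAF2 and the cIAPs. Its level was 0.240, 0.318 and 0.250 FPKM in untreated macrophages, on between 49 and 66 reads per library, and 41.6, 44.7 and 43.7 FPKM after LPS. In osteoclasts it was 12.98, 13.4 and 12.98 FPKM untreated and 30.0, 31.5 and 30.7 FPKM after LPS. Untreated osteoclasts stood apart from untreated macrophages, and LPS-treated osteoclasts came nearer to LPS-treated macrophages than for Tnfaip3, Tnip1, Tnip3 or Birc3, still with no overlap. Traf1 rose 161-fold in macrophages by the ratio of means (log2 difference of FPKM + 1 of 5.13, SE 0.04) and 2.34-fold in osteoclasts (1.17, SE 0.04).

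Traf2 (ENSMUSG00000026942, chromosome 2, 25517982 to 25546940, minus strand) encodes an adapter that brings cIAPs to TNF-family receptors. Its level was 4.20, 3.84 and 3.75 FPKM in untreated macrophages and 14.6, 13.6 and 14.4 FPKM after LPS, and 5.97, 5.65 and 5.21 FPKM in untreated osteoclasts and 7.51, 9.44 and 7.60 FPKM after LPS. The groups did not overlap, and LPS-treated osteoclast replicate 2 was above the other two of its group. Traf2 rose 3.61-fold in macrophages (log2 difference 1.62, SE 0.08) and 1.46-fold in osteoclasts (0.47, SE 0.08, limma adjusted p = 0.00125).

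Traf3 (ENSMUSG00000021277, chromosome 12, 111166370 to 111267153, plus strand) restrains non-canonical NF-kB signalling by promoting the degradation of the kinase NIK. Its level was 9.83, 10.1 and 10.6 FPKM in untreated macrophages and 14.1, 14.5 and 14.0 FPKM after LPS, and 18.7, 18.9 and 19.5 FPKM in untreated osteoclasts and 19.9, 23.5 and 21.1 FPKM after LPS. All osteoclast libraries were above all macrophage libraries, and the 4 groups did not overlap. Traf3 rose 1.39-fold in macrophages (log2 difference 0.44, SE 0.06), but the difference was -0.16 when rescaled to TPM (adjusted p = 0.0504) and 0.18 with quantile normalization. In osteoclasts the difference was 0.17 (95% interval 0.04 to 0.29, limma adjusted p = 0.0609), and it passed the test on recovered reads with voom (0.17, adjusted p = 0.0311), with the filter set at a mean of 5 FPKM (adjusted p = 0.0481) and without LPS-treated osteoclast replicate 1 (0.22, adjusted p = 0.017).

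Traf6 (ENSMUSG00000027164, chromosome 2, 101678429 to 101701669, plus strand) encodes the ubiquitin ligase that transmits signals from Toll-like receptors and from RANK. Its level was 6.06, 5.93 and 5.71 FPKM in untreated macrophages and 9.82, 8.46 and 8.28 FPKM after LPS. In osteoclasts it was 15.1, 13.6 and 14.5 FPKM untreated and 14.7, 15.7 and 15.5 FPKM after LPS. Osteoclast libraries were above macrophage libraries throughout, and within osteoclasts the treated and untreated libraries overlapped, the only neighbouring groups that did so for any of the 10 genes. Traf6 rose in macrophages by a log2 difference of 0.51 (SE 0.06), which became -0.06 when rescaled to TPM (adjusted p = 0.426). In osteoclasts the difference was 0.08 (95% interval -0.05 to 0.22, limma adjusted p = 0.407).

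**Figure D2:**
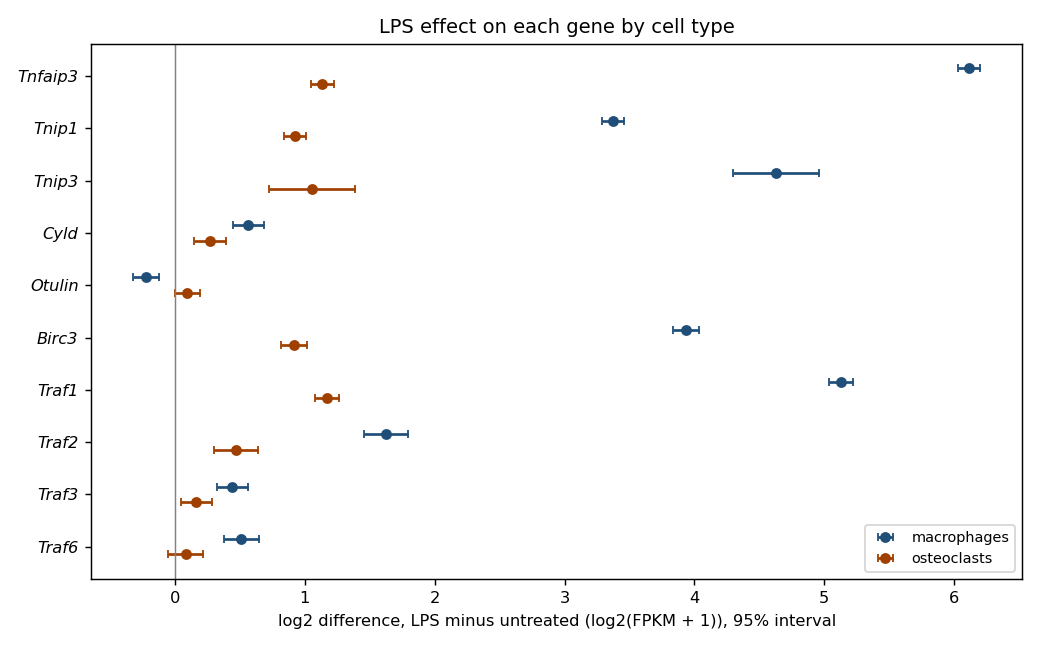
LPS effect on each of the 10 genes as the log2 difference of FPKM + 1, in macrophages and osteoclasts, with 95% intervals from limma. The macrophage points for Tnfaip3 (6.11), Traf1 (5.13) and Tnip3 (4.63) lie far to the right of the osteoclast points (1.14, 1.17 and 1.05), and the Otulin points lie on either side of 0.

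The size of the smaller LPS effects depended on how libraries were put on a common scale. The deposited columns summed to between 255852 and 261584 FPKM in untreated macrophages and to between 399796 and 408994 FPKM in LPS-treated macrophages. Rescaling each library to the same sum (TPM) moved the median of all genes for LPS in macrophages from 0.02 to -0.55, and quantile normalization moved it to -0.14. Under TPM the calls of Cyld (0.04), Traf3 (-0.16) and Traf6 (-0.06) in macrophages were lost, although all 3 lay above the shifted median. At the same time Tnfaip3 (5.62), Traf1 (5.73), Tnip3 (4.18), Birc3 (3.40), Tnip1 (2.77) and Traf2 (1.15) stayed called higher and Otulin (-0.87) stayed called lower, below that median.

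**Figure D3:**
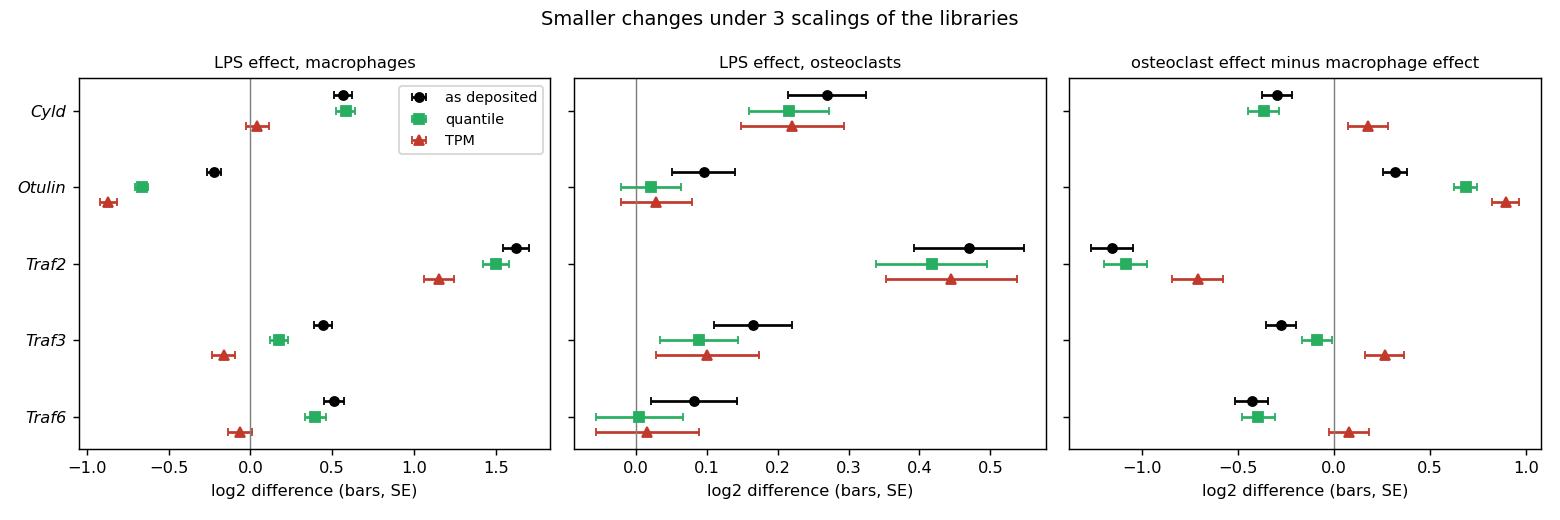
Log2 differences with SE bars for Cyld, Otulin, Traf2, Traf3 and Traf6 under 3 scalings of the libraries (as deposited, quantile and TPM), in panels for the LPS effect in macrophages, in osteoclasts and their difference. Traf3 and Traf6 cross 0 in macrophages under TPM, and Traf2 stays above 0 there.

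Without LPS, 8 of the 10 genes were higher in osteoclasts than in macrophages and 2, Tnip3 and Otulin, were lower. Over all genes tested, 38.8% were called higher and 39% lower, and the median of the 10 genes was 0.95 beside 0.00 over all genes. Traf1 differed most, 48.8-fold by the ratio of means (log2 difference 3.48, SE 0.04). The others that were higher were Tnfaip3 (1.51), Birc3 (1.19), Traf6 (1.16), Cyld (1.00), Tnip1 (0.90), Traf3 (0.84) and Traf2 (0.42). When rescaled to TPM, Tnip1 was at 0.51, Traf3 at 0.48 and Traf2 at 0.09, of which Traf2 was no longer called (adjusted p = 0.387). Tnip3 was 5.46-fold lower (-1.61, SE 0.15) and Otulin 1.37-fold lower (-0.43, SE 0.04, and -0.86 under TPM). The Tnip3 difference was -2.46 under TPM and -2.44 with voom, and that of Traf1 was 5.60 with voom.

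With LPS, 3 of the 10 genes were higher in osteoclasts and 7 were lower. Over all genes tested, 40.9% were called higher and 43% lower, and the median of the 10 genes was -0.61. Cyld (0.70), Traf3 (0.57) and Traf6 (0.73) stayed higher in osteoclasts. Tnip3 was 47.8-fold lower (log2 difference -5.19), Tnfaip3 11.3-fold lower (-3.47), Birc3 3.61-fold lower (-1.83) and Tnip1 2.96-fold lower (-1.55). Traf2 (-0.73) and Traf1 (-0.48) were also lower, Traf1 by -0.19 with quantile normalization. Otulin was lower by -0.11 (SE 0.04, limma adjusted p = 0.0343), a call that held with a pseudocount of 0.1 and with the replicate block but not with several other settings. The difference was 0.04 under TPM, 0.12 with quantile normalization, and -0.07 without LPS-treated macrophage replicate 2 (adjusted p = 0.15). It was also lost without LPS-treated osteoclast replicate 2 (adjusted p = 0.0574) or replicate 3 (adjusted p = 0.0978).

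**Figure D4:**
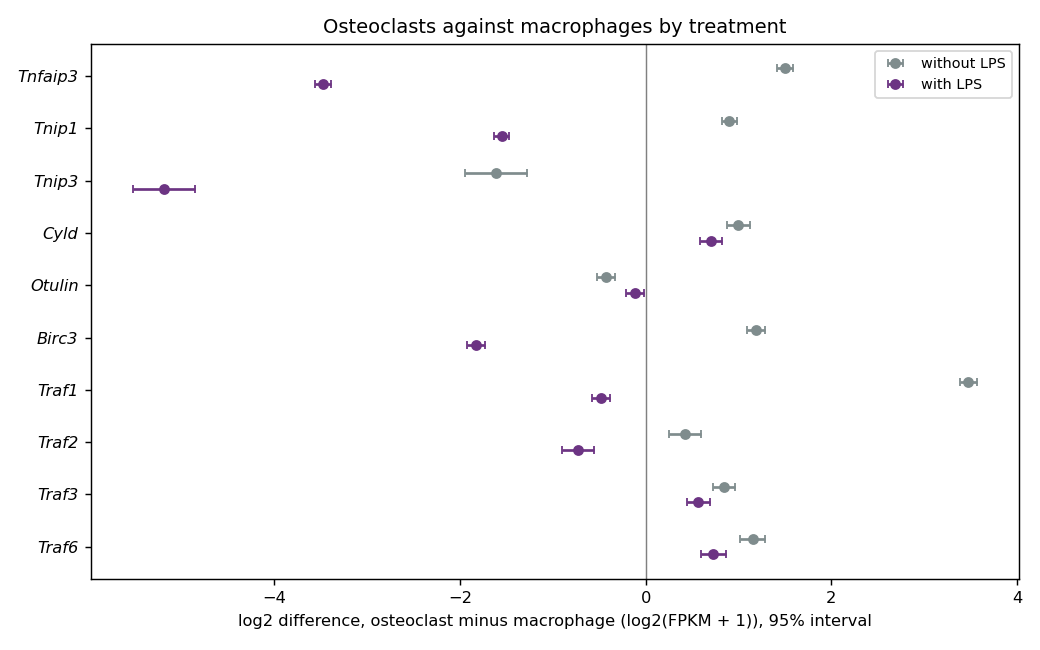
Osteoclast minus macrophage log2 difference of FPKM + 1 for each of the 10 genes, without and with LPS, with 95% intervals from limma. Tnfaip3, Tnip1, Birc3, Traf1 and Traf2 lie to the right of 0 without LPS and to the left with it, while Cyld, Traf3 and Traf6 lie to the right in both.

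In the direct test of the difference (osteoclast response minus macrophage response to LPS), all 10 genes differed, 9 below 0 and Otulin above 0, with Cyld, Traf3 and Traf6 above 0 under TPM. Over all genes tested, 26.6% were called above 0 and 30% below 0, and the median of the 10 genes was -1.80 beside -0.01 over all genes. On log2(FPKM + 1) the largest differences were those of Tnfaip3 (-4.98, SE 0.06, limma adjusted p = 1.86e-13), Traf1 (-3.96), Tnip3 (-3.57) and Birc3 (-3.02). Traf1 was below Tnfaip3 with a pseudocount of 0.1 (-5.66 against -5.13), under TPM (-4.59 against -4.53) and with voom (-6.10 against -5.15), so which of the pair differed most depended on the scale. Tnip1 (-2.45) and Traf2 (-1.16) followed. The differences of Traf6 (-0.43), Cyld (-0.30), Traf3 (-0.28) and Otulin (0.32) were smaller on this scale. Otulin was at 0.90 under TPM and 0.69 with quantile normalization, and Traf2 was at -0.71 under TPM. Under TPM Cyld was at 0.18, Traf3 at 0.26 and Traf6 at 0.08, of which Traf3 passed the test (adjusted p = 0.0324). With quantile normalization the call of Traf3 was lost (-0.09, adjusted p = 0.365). The comparisons of the 2 cell types with and without LPS share their libraries with the LPS effects, so they are not independent of them.

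The group means of 8 of the 10 genes followed 1 of 2 orders. Tnfaip3, Tnip1, Birc3, Traf1 and Traf2 all ran from LPS-treated macrophages through LPS-treated and untreated osteoclasts to untreated macrophages. Cyld, Traf3 and Traf6 all ran from LPS-treated osteoclasts through untreated osteoclasts to LPS-treated and then untreated macrophages. Tnip3 and Otulin each had an order of their own. Per length, the most abundant gene was Otulin in untreated macrophages and Tnfaip3 in LPS-treated macrophages. Birc3 and Tnip3 overlapped in LPS-treated macrophages, as did Birc3 and Tnfaip3 in untreated osteoclasts.

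Over the 12 libraries, the 5 tested genes whose log2(FPKM + 1) correlated best with that of Tnfaip3 were Adgrl2, Gna13, Hivep1, Nfkb2 and Nt5c3, with Pearson r of 0.998 each. Nfkb2, the NF-kB subunit gene, was at 23.3 FPKM in untreated macrophages, 272.9 after LPS, 42.0 in untreated osteoclasts and 75.4 after LPS. Those most like Traf6 were Tnfrsf9, Ncf4, Cyp4v3, Atp2c1 and Sbno1, with r between 0.992 and 0.994. The 12 libraries fall into 4 groups of 3, so the points of a group share their condition, and no p is given.

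The other ubiquitin and adapter genes of the pathway comprised 34 genes, of which 32 were tested and Traf4 and Ube2v1 were not. In macrophages 26 were called higher with LPS, 2 lower and 4 did not pass. In osteoclasts 8 were called higher, 1 lower and 23 did not pass. With quantile normalization Ikbkg, Itch and Xiap were also called lower there, and under TPM Xiap was (-0.23). Over all genes tested the shares called higher and lower were 36.8% and 33.1% in macrophages and 11.1% and 6.59% in osteoclasts. The median log2 difference was 0.69 and 0.06. Rescaled to TPM, 14 were called higher and 12 lower in macrophages, where 15.9% of all genes tested were called higher and 70.0% lower. The largest rises in macrophages were those of Peli1, an E3 ligase of Toll-like receptor signalling (4.14, from 7.504 to 148 FPKM), Ripk2, the kinase of NOD receptor signalling (3.54), and Birc2, which encodes cIAP1 (2.82). Tab1 and Map3k14, which encodes NIK, both fell, by 1.83 on the log2 scale. Under TPM their differences were -2.72 and -2.83. In osteoclasts Ripk2 (1.74), Peli1 (1.11) and Ikbke (1.08) rose most.

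By role, all 4 A20 partner genes (Tax1bp1, Itch, Rnf11 and Tnip2) were called higher with LPS in macrophages and none was called in osteoclasts, beside 36.8% and 11.1% of all genes called higher. Under TPM 2 of the 4 were called higher in macrophages, Rnf11 was not called (0.07) and Itch was called lower (-0.48), and with quantile normalization Itch was not called in macrophages (-0.0085) and was called lower in osteoclasts (-0.17). Of the 3 genes for the linear ubiquitin ligase, Rnf31 rose in both cell types, and Rbck1 and Sharpin were called in neither, although under TPM both were called lower in macrophages (-0.60 and -0.52), as was Rbck1 with quantile normalization (-0.28). All 5 tested TRAF, IAP and TRAF-binding genes were called higher in macrophages, and 3 were in osteoclasts. Under TPM 3 were called higher in either cell type, and Xiap was called lower in osteoclasts (-0.23). Of the 12 genes listed as kinases and adapters, 10 were called higher and 2 lower in macrophages, and 3 higher and 1 lower in osteoclasts. Under TPM 5 and 5 were called in macrophages, with Ikbkg, Chuk and Map3k7 turned lower. The interaction was called for 25 of the 32 tested genes, 23 below 0 and 2 above, beside 30% and 26.6% of all genes tested. The 2 above were Tab1 (1.68) and Map3k14 (1.36), and the lowest were Peli1 (-3.03), Birc2 (-2.12) and Rnf31 (-2.08). Rescaled to TPM, Tab1 was at 2.48, Map3k14 at 2.17, Peli1 at -2.49, Birc2 at -1.76 and Rnf31 at -1.60. Under TPM 12 were called above 0 and 16 below, where 63.3% of all genes tested were called above 0 and 13.9% below.

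**Figure D5:**
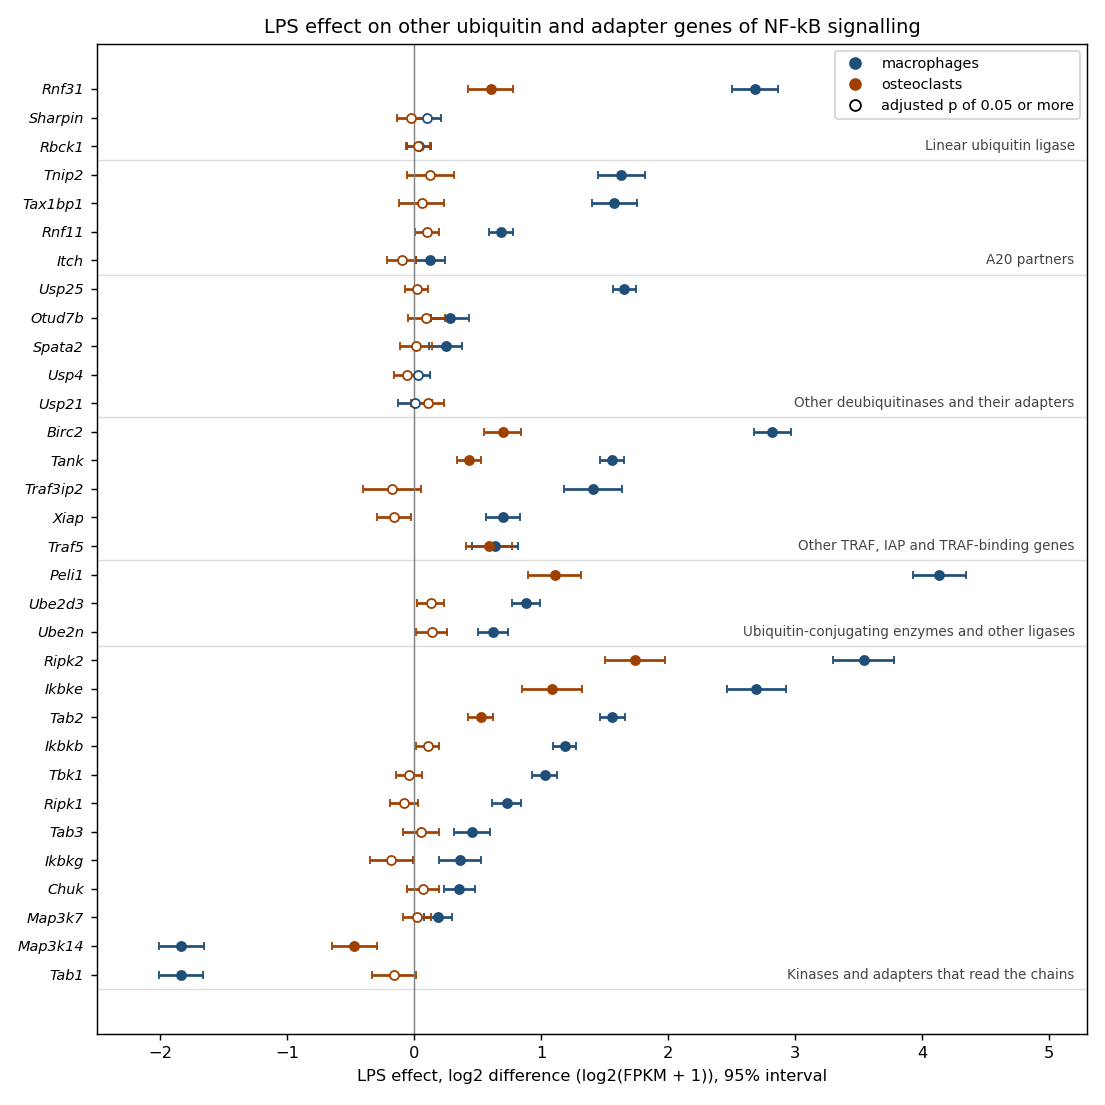
LPS effect as the log2 difference of FPKM + 1 with 95% intervals for the 32 tested pathway genes, grouped by role, in macrophages and osteoclasts. Filled points were called and open points were not; Peli1, Ripk2 and Birc2 show the largest rises in macrophages, and most osteoclast points lie near 0.

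Between the cell types, without LPS 13 of the 32 tested pathway genes were higher in osteoclasts and 14 lower, close to the 38.8% and 39% of all genes tested. Under TPM 8 were higher and 23 lower, where 24.4% of all genes were called higher and 57.0% lower. Without LPS, Tank (2.54), Otud7b (1.72) and Traf3ip2 (1.30) were the highest and Ikbke (-1.77), Rbck1 (-1.01) and Map3k14, which was 2.38-fold lower, the lowest. Rescaled to TPM, Tank was at 2.22, Otud7b at 1.45, Traf3ip2 at 1.24, Ikbke at -2.61, Rbck1 at -1.49 and Map3k14 at -1.55. With LPS 8 were higher and 24 lower, beside 40.9% and 43% of all genes tested, Tab1 (1.79), Otud7b (1.53) and Tank (1.41) being the highest and Peli1 (-3.41), Ikbke (-3.38) and Ripk2 (-2.64) the lowest. Under TPM 8 were higher and 21 lower, with the calls of Traf3ip2, Chuk and Spata2 lost, and with quantile normalization 8 were higher and 20 lower, with that of Map3k7 lost too.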

How the data were processed

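RNA of 12 libraries was measured per gene. The submitters' processing notes name fastp, STAR, featureCounts, DESeq2 and build mm10, without versions. The authors deposited FPKM values. Whole reads were recovered from the steps of these values, within a tolerance of 0.02, for all 25854 genes above 0, and the implied gene lengths matched GENCODE M21 for 96.7% of them. The read denominators so implied (12764596 to 23514243) differed from the assigned reads, so values were not scaled to each library's own total. Log2(FPKM + 1), with a pseudocount of 1, was fitted with 4 group means and 5 contrasts in limma 3.58.1 (eBayes with a variance trend, R 4.3.3), keeping genes that reached 1 FPKM in 3 or more libraries. The fit was run on simulated reads with changed genes in LPS-treated macrophages only and no shift of scale between libraries. The recovery of reads and the interaction were not tested in this way. All 10 genes are named, and of the pathway list up to 3 called genes at each end of each contrast with a difference of at least 1. Further pathway genes are named where a role, or a call that changed with the scaling, is described. The members and lists were chosen with earlier results of these data known. Alternatives were TPM, quantile normalization, a pseudocount of 0.1, a filter at a mean of 5 FPKM or none, only the groups compared, a replicate block, no trend, voom on the recovered reads and each library left out. No exon of the 10 genes overlaps an exon of another gene on either strand, and sequence shared with paralogs was not examined. Promoter sequences are from RefSeq.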

Additional observations from a re-analysis of the deposited data

Results flagged for a closer look

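The LPS effect differed between osteoclasts and macrophages, by limma's test of the interaction, for each of the 10 genes. The log2 difference, osteoclast effect minus macrophage effect, was -4.98 for Tnfaip3, -2.45 for Tnip1 and -3.57 for Tnip3. It was -0.30 for Cyld and 0.32 for Otulin. It was -3.02 for Birc3, -3.96 for Traf1, -1.16 for Traf2, -0.28 for Traf3 and -0.43 for Traf6. Under TPM the values of Cyld (0.18), Traf3 (0.26, adjusted p = 0.0324) and Traf6 (0.08) were above 0, and with quantile normalization Traf3 was not called (-0.09, adjusted p = 0.365). Over all genes tested, 26.6% were called above 0 and 30% below 0. Traf1 was at 0.269 FPKM in untreated macrophages, and its interaction was -6.10 with voom on the recovered reads.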

How the results depend on the processing

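Of 1040 comparisons of a gene's difference with an alternative, 1021 kept their direction and their side of the threshold, 7 reversed, 9 were lost and 3 were gained. With 1 library left out, 596 of 600 were kept. Many of the 1040 could not reverse, so these counts overstate how far the differences were put to a test. A library left out from outside the groups compared leaves a difference unchanged. The replicate block, the filters, the trend setting and only the groups compared also alter its SE and p alone. All 7 reversals came with another scaling. Under TPM the macrophage LPS effect was -0.16 for Traf3 and -0.064 for Traf6, the interaction was 0.18 for Cyld, 0.26 for Traf3 (limma adjusted p = 0.0324) and 0.080 for Traf6, and osteoclasts with LPS against macrophages with LPS were 0.040 for Otulin. With quantile normalization the last was 0.12 (adjusted p = 0.02), and the interaction of Traf3 was -0.09 (adjusted p = 0.365). Under TPM 2 genes were called above 0 in the interaction in place of 1, where the share of all genes tested called above 0 was 63.3% in place of 26.6%. The cause was not tested. Otulin with LPS was also lost with only the groups compared (adjusted p = 0.0864) and with voom (adjusted p = 0.1). Deviations of same-numbered libraries from their group means correlated at -0.07 to 0.104 over 18 pairs, 1 of them over 0.1. Those of other libraries correlated at -0.137 to 0.11. For untreated against LPS-treated libraries of the same number, the values were 0.104, 0.097 and -0.053 in macrophages. In osteoclasts they were 0.072, 0.083 and 0.029. Such correlations cannot tell whether same-numbered libraries share an animal or a batch. The fit with the replicate number as a block called 7914 genes for LPS in macrophages in place of 7921, with 9 of the 10 genes higher and 1 lower, and changed no call of the 10 genes in any contrast. A narrower NF-kB pattern, in 5.78% of all promoter windows, matched in 5 of the 11 windows of the 10 genes. By gene it matched in 4 of the 10, losing Cyld and Traf3 and adding Traf2. In Tnfaip3 it matched at neither printed site, but at chr10:19015369-19015378 and, in the other window, at chr10:19012043-19012052. Only the groups compared could not be applied to the interaction. Depth limits Traf1 in untreated macrophages, at 49 to 66 reads per library, and Tnip3 in untreated osteoclasts, at 133 to 220.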
